A study of Mus musculus with 6 samples.

Results

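The mouse keratin genes were read out of a transcriptome comparison of prostate tumor cells taken after androgen withdrawal and from untreated animals. A gene was a member if its array row carried exactly 1 gene symbol, made of Krt, 1 to 3 digits and at most 1 further letter; keratin-associated proteins were not taken. This gave 48 of 30142 genes, each with 1 transcript cluster, of which 27 are type I, 20 are type II and 1, Krt222, is keratin-like. By usual site of expression 6 are keratins of simple epithelia, 19 of stratified epithelia and 22 of hair follicle and hair shaft. A row annotated with both Krt6a and Krt6b and a row annotated with Krt81, Krt83 and a further gene did not meet the rule.

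The degarelix group was made of 3 samples from male mice with MCRedAL prostate tumor allografts, given degarelix under the skin once tumors measured about 500 mm2, a unit the labels use. Degarelix blocks the gonadotropin-releasing hormone receptor and thereby lowers testosterone. The untreated group was made of 3 samples from male mice with the same allografts, and mice had been randomized between the groups. MCRedAL cells are mouse prostate cancer cells of 1 line and carry the red protein mCherry. Sorting took cells with mCherry and without 3 immune cell markers, CD45 and CD11b among them, so the values describe sorted tumor cells and not whole prostate. The titles tag the degarelix samples 7dPC, which the labels do not explain, and they give no age, strain, dose or duration of treatment. Each sample was hybridised to 1 Affymetrix MTA 1.0 array, from RNA with an integrity number no lower than 9. The 3 arrays per group limit the precision, and the labels call them biological replicates without saying whether each is 1 animal.

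Keratins form the intermediate filaments of epithelial cells. A filament needs a type I and a type II keratin in equal amounts, so the genes are used in pairs, such as Krt18 with Krt8 in simple epithelia and Krt14 with Krt5 in basal cells. In the mouse the type I genes lie together on chromosome 11 and the type II genes on chromosome 15, where Krt18 also lies. In prostate, Krt8 and Krt18 mark luminal cells, Krt5, Krt14 and Krt15 mark basal cells, and Krt4 and Krt19 have been described in luminal progenitor-like cells.

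Values are the deposited log2 expression values, and changes are degarelix minus untreated on that scale, with the moderated standard error of limma. A gene was called changed at a Benjamini-Hochberg adjusted p under 0.05 over all 30142 genes. The 23 background probe sets, which match no transcript, had values from 2.14 upward, and the brightest of them reached 6.59 to 6.93 on single arrays. A gene is called above or below background here by its group mean against 6.72, the mean over arrays of the brightest such probe set. Below background thus means under the brightest of these sets, and does not show that a transcript was absent. Probes differ in brightness, so levels of different keratins are not compared with each other. In RNA pooled over sorted cells, more cells of a type and more RNA per cell cannot be told apart.

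After degarelix 12 of the 48 keratins were higher and 0 were lower in limma, against 4.19% and 7.51% of all genes. At an unadjusted p under 0.05, 19 keratins were higher and 0 were lower, against 11.2% and 14.9% of all genes. The 3 degarelix values lay above the 3 untreated values for 21 keratins, against 14.8% of all genes, and below them for 0, against 16.4%. The 12 comprised 9 type I keratins (Krt10, Krt13, Krt14, Krt15, Krt19, Krt31, Krt32, Krt36 and Krt42) and 3 type II keratins (Krt4, Krt78 and Krt86). The median change was 0.17 over the keratins and 0.04 over all genes. The number called was 7 without degarelix replicate 1, without degarelix replicate 2 or without untreated replicate 3, and 8 without untreated replicate 2. When dim genes were left out of the test, 9 keratins remained and 4 were called (Krt13, Krt15, Krt19 and Krt4). The rest of the 12 were then not tested. Of the 12, Krt13, Krt15, Krt19, Krt32, Krt36, Krt4 and Krt78 were called under every alternative that tested them.

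**Figure D1:**
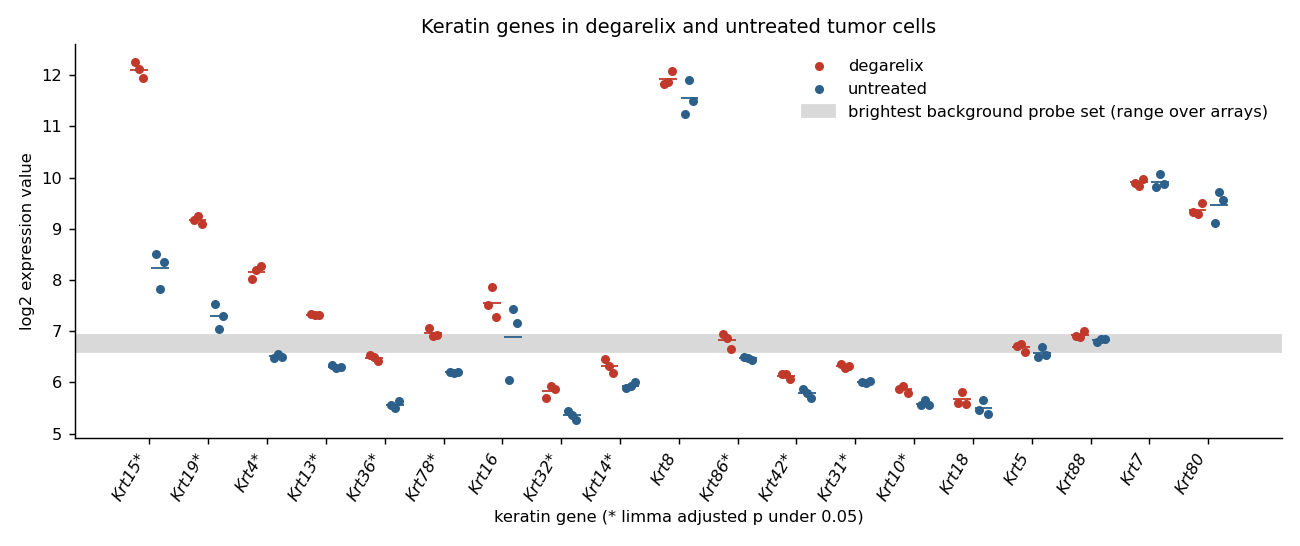
Log2 expression value of 19 keratins (vertical axis) in each of 3 degarelix samples (red, left of each pair) and 3 untreated samples (blue, right), with the mean of each group as a line, ordered by change; the grey band is the range over arrays of the brightest background probe set and an asterisk marks a limma adjusted p under 0.05. Krt15 lay between 11.94 and 12.26 in degarelix samples and between 7.83 and 8.50 in untreated samples, while Krt8, Krt7 and Krt80 overlapped between the groups.

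Krt15, a type I keratin of basal cells and of hair follicle stem cells, had the largest change among the keratins. It stood at 12.26, 12.12 and 11.94 in the degarelix samples, against 8.50, 7.83 and 8.36 in the untreated samples. Both groups were above background and more than 3 log2 units separated the lowest degarelix from the highest untreated sample. The change was 3.88 (SE 0.17), a 14.7-fold difference (limma adjusted p = 2.64e-05).

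Krt19, the short type I keratin of simple and ductal epithelia, which lacks most of the tail domain, had values of 9.17, 9.25 and 9.10 in degarelix samples, against 7.54, 7.04 and 7.30 in untreated samples. The groups were apart and both were above background. It rose by 1.88 (SE 0.12), or 3.68-fold (limma adjusted p = 8.85e-05). Krt4, a type II keratin of mucosal stratified epithelia, had 8.01, 8.19 and 8.27 in degarelix samples, against 6.47, 6.56 and 6.50 in untreated samples. Its untreated mean lay below background and its degarelix mean above it. It rose by 1.65 (SE 0.08, limma adjusted p = 3.79e-05). Against the brightest background probe set of each untreated array, in place of its own dimmer value, it was at least 2.72-fold higher in degarelix samples.

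Krt13, the type I keratin that pairs with Krt4 in mucosal epithelia, had 7.33, 7.31 and 7.31 in degarelix samples, against 6.34, 6.28 and 6.30 in untreated samples. It rose by 1.01 (SE 0.06, limma adjusted p = 8.04e-05), again to above background in degarelix samples only, and was at least 1.52-fold higher by the same bound. Both members of the Krt4 and Krt13 pair passed the test. Krt78, a type II keratin of stratified epithelia, had 7.07, 6.91 and 6.93 in degarelix samples, against 6.21, 6.19 and 6.21 in untreated samples, and rose by 0.77 (SE 0.07, limma adjusted p = 4.41e-04). Its degarelix mean alone lay above background, and by the same bound Krt78 was at least 1.2-fold higher.

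Among the other stratified keratins, Krt14, the basal partner of Krt5, stood at 6.45, 6.32 and 6.18 in degarelix samples, against 5.89, 5.92 and 6.0 in untreated samples. The groups did not overlap but both lay below background. The change was 0.38 (SE 0.08, limma adjusted p = 0.0225), and it no longer passed on leaving out degarelix replicate 1 (adjusted p = 0.0793), degarelix replicate 2 (0.0805), untreated replicate 2 (0.072) or untreated replicate 3 (0.0502). Krt5, a type II keratin of basal cells, had 6.72, 6.75 and 6.59 in degarelix samples, against 6.49, 6.70 and 6.54 in untreated samples. These overlapped, and the change of 0.11 (SE 0.08) did not pass (limma adjusted p = 0.431). Both Krt5 means lay below background, so these values do not show that Krt5 was unchanged. Krt42, a keratin of the mouse nail unit, and Krt10, the type I keratin of suprabasal epidermis, changed by 0.34 and 0.28 (limma adjusted p = 0.0229 and 0.0386), both below background in both groups. Krt42 lost its call on leaving out the same 4 samples as Krt14 (adjusted p = 0.0713 to 0.0952). Krt10 was not called without any sample but degarelix replicate 3 (adjusted p = 0.0605 to 0.16), with array medians centred (0.0772), under cyclic loess (0.0638) or with an intensity trend and robust variances (0.0522). Krt1, the type II partner of Krt10, was at 4.90 ± 0.11 in degarelix samples and 4.80 ± 0.05 in untreated samples (SD, n = 3 each; change 0.10, limma adjusted p = 0.452).

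Krt16 and Krt17 are keratins of injured and hyperproliferative epithelium. Krt16 had 7.51, 7.86 and 7.28 in degarelix samples, against 6.04, 7.43 and 7.16 in untreated samples. Its change of 0.67 (SE 0.32) did not pass (limma adjusted p = 0.227), and without untreated replicate 1 it was 0.25. Untreated replicate 1 differed from the mean of the other untreated samples by -1.25 in Krt16, the largest shortfall of that sample among the keratins, followed by Krt80 (-0.53) and Krt8 (-0.44). That sample was the lowest of the untreated samples for 11 keratins and the highest for 20. It also had the highest mean level of 13 leukocyte markers (5.92, with 5.15 and 5.51 in untreated replicates 2 and 3); whether this bears on Krt16 was not tested. Krt17 changed by 0.39 (SE 0.11) and narrowly missed the threshold (limma adjusted p = 0.0615), with both means below background.

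Of the 6 simple keratins only Krt19 passed the test. Krt8, the type II keratin of luminal cells, had 11.83, 11.86 and 12.09 in degarelix samples, against 11.25, 11.90 and 11.49 in untreated samples. The groups overlapped, and the change of 0.38 (SE 0.15) did not pass (limma adjusted p = 0.162), although it did under cyclic loess (0.53, adjusted p = 0.0421) and without untreated replicate 2 (0.56, adjusted p = 0.0271). Krt18, its type I partner, had 5.60, 5.82 and 5.58 in degarelix samples, against 5.47, 5.65 and 5.38 in untreated samples. All of these Krt18 values lay below background, and the change was 0.17 (SE 0.10, limma adjusted p = 0.307). Its partner Krt8 was far above background on the same arrays, and whether the Krt18 cluster responds to its transcript was not tested, so these values do not show that Krt18 was absent or unchanged. Krt7, a type II keratin of ducts and transitional epithelium, was far above background without a called change, at 9.90, 9.84 and 9.98 in degarelix samples, against 9.81, 10.07 and 9.88 in untreated samples (change -0.02, SE 0.09, limma adjusted p = 0.921). Krt20 and Krt23, found in gut and other simple epithelia, lay below background in both groups. Of the type II stratified keratins Krt80 was likewise bright, at 9.33, 9.29 and 9.50 in degarelix samples, against 9.11, 9.72 and 9.56 in untreated samples (change -0.09, SE 0.15, limma adjusted p = 0.725). Krt7 and Krt80 were the only keratins with a change below 0, and that sign turned under cyclic loess (0.10 for Krt7 and 0.02 for Krt80).

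All 22 hair keratins had changes above 0, from 0.06 to 0.92, and 4 of them passed the test. Krt36, a type I hair keratin also found in tongue and nail, had 6.53, 6.49 and 6.42 in degarelix samples, against 5.55, 5.49 and 5.64 in untreated samples. The groups were apart by more than the range of either, and the rise was 0.92 (SE 0.07, limma adjusted p = 2.02e-04), although both means lay below background. Krt32, Krt86 and Krt31, keratins of the hair shaft, changed by 0.48, 0.35 and 0.31 (limma adjusted p = 0.00891, 0.0344 and 0.0177). Krt32 and Krt31 lay below background in both groups. The Krt86 mean was above background in degarelix samples only, although degarelix replicate 3 (6.65) lay below it. That mean was at least 1.08-fold higher by the bound used for Krt4. Krt31 lost its call with array medians centred (adjusted p = 0.0565), and Krt31 and Krt86 each lost it without degarelix replicate 1, degarelix replicate 2, untreated replicate 2 or untreated replicate 3 (adjusted p = 0.0531 to 0.071 for Krt31 and 0.0915 to 0.124 for Krt86). The remaining 18 hair keratins changed by 0.06 to 0.30. They include the inner root sheath genes Krt25, Krt26, Krt27, Krt28, Krt71, Krt72 and Krt73, and Krt74, which RefSeq annotates as a transcribed pseudogene in the mouse. Of the 18 only Krt88, grouped here with the type II hair keratins, was above background, at 6.93 ± 0.06 in degarelix samples and 6.82 ± 0.04 in untreated samples (SD, n = 3 each). Krt88 did not pass (limma adjusted p = 0.357).

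Positive changes, most of them small, were shared by all dim keratins. Of the 48, 46 had a change above 0, against 58.7% of all genes. All 39 keratins whose mean over the 6 arrays was below background had one, against 69% of the 20116 such genes. Of the 9 brighter keratins 7 had one, against 3795 of the 10026 brighter genes. Over the 48, the count was also 46 with array medians centred and under cyclic loess, and 47 with quantile normalization. The 36 keratins that did not pass had a median change of 0.15, and all 20116 dim genes had a median of 0.06, against -0.08 for the 10026 brighter genes. By their means over the 6 arrays 9 keratins were above background, of which 4 were higher, beside 7.69% of all such genes. The other 39 were below, of which 8 were higher, beside 2.44%. In 37 keratins both group means lay below background. Keratin genes resemble each other in sequence, and shared hybridisation among them was not tested.

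**Figure D2:**
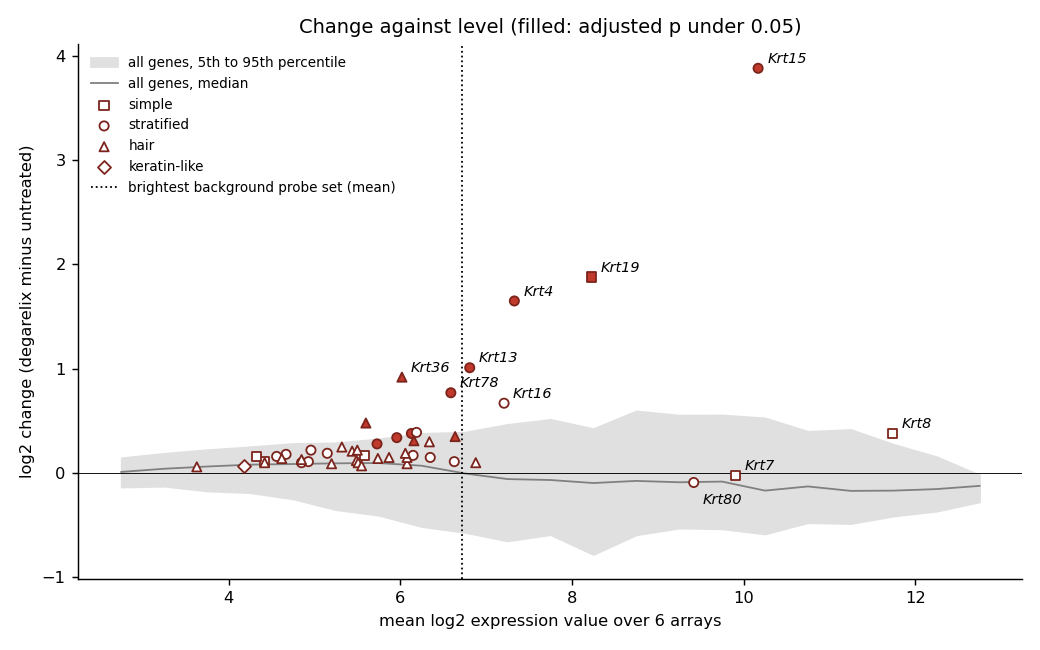
Log2 change, degarelix minus untreated (vertical axis), against the mean log2 value over 6 arrays (horizontal axis) for 48 keratins, with squares for simple, circles for stratified, triangles for hair keratins and a diamond for Krt222; filled symbols passed the test, grey spans the bulk of all genes at the same level between the percentiles named in the key, with their median as a line and the dotted line the background probe sets. Krt15, Krt19, Krt4, Krt13, Krt36, Krt78, Krt16 and Krt32 stand clear of the grey range, and most other keratins lie left of the dotted line and just above 0.

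The order of the genes along the chromosomes is taken from RefSeq annotation of assembly GRCm38.p6. The most changed type I keratins were neighbours there. In the annotation Krt36, Krt13, Krt15 and Krt19 follow each other with no other gene between them, and their changes were 0.92, 1.01, 3.88 and 1.88. On either side of this run, Krt35 changed by 0.13 (SE 0.09) and Krt9 by 0.22 (SE 0.08), and neither passed the test. Krt31 and Krt32, which lie next beyond Krt35, passed it, as did Krt14, next beyond Krt9. The first 12 keratins of the type I region, from Krt222 to Krt40, had changes of 0.06 to 0.28, with Krt10 alone called. On chromosome 15, Krt4, Krt79, Krt78 and Krt8 follow each other, with changes of 1.65, 0.15, 0.77 and 0.38. Of the 36 measured genes that are no keratin members within the type I region, many of them keratin-associated protein genes, 1 was higher and 2 were lower, with a median of 0.07. The 7 such genes measured on chromosome 15 had a median of 0.18, beside 0.17 for the 21 keratins there. They include Krt90, a keratin by its updated symbol only, and the transcribed pseudogenes Gm6042, Gm5476, Gm5477 and Gm5478, so they are not a set free of keratin genes.

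**Figure D3:**
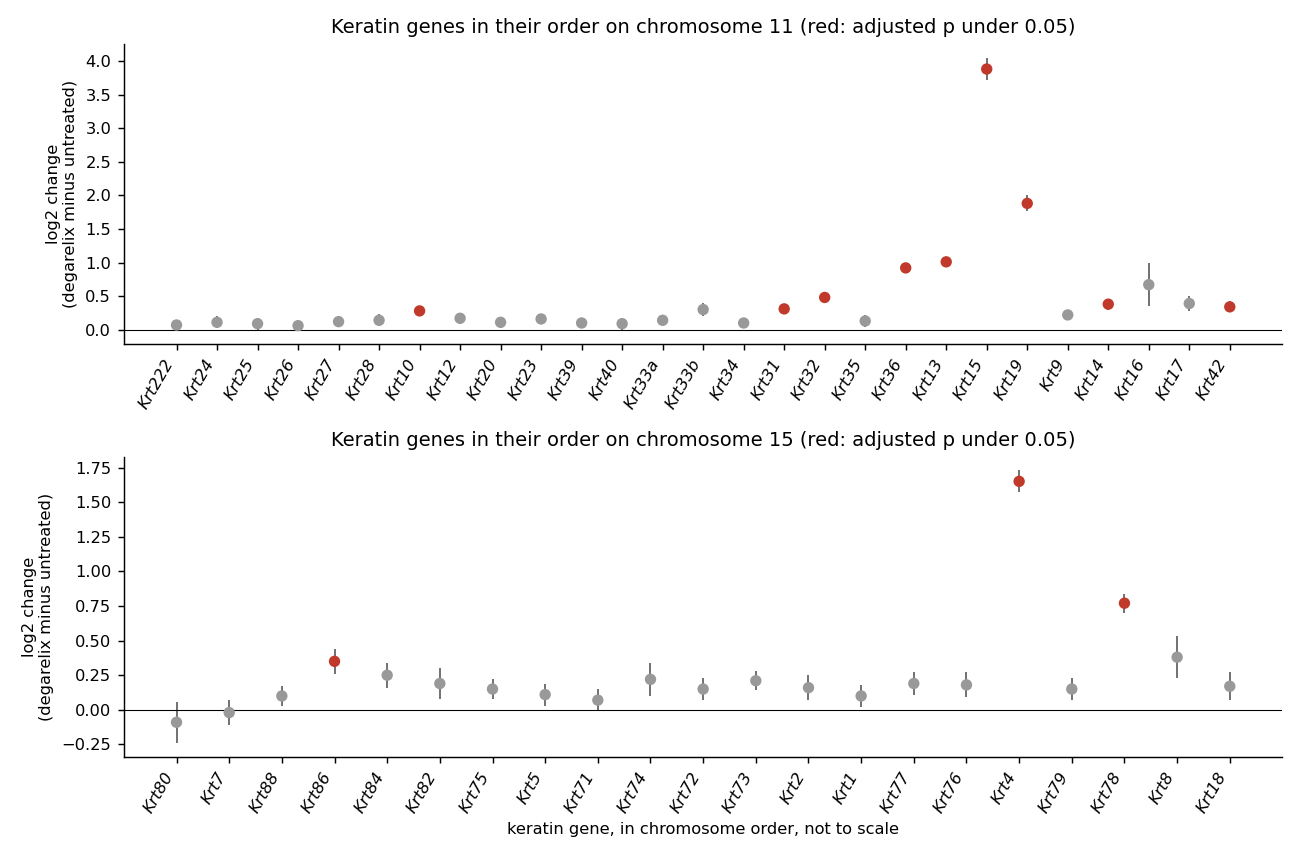
Log2 change, degarelix minus untreated, with its standard error (bars) for each keratin in its order along chromosome 11 (top) and chromosome 15 (bottom), spaced evenly and not to scale; red points passed the test. The adjacent genes Krt36, Krt13, Krt15 and Krt19 stand out on chromosome 11, with Krt4 and Krt78 on chromosome 15.

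Promoter sequences are shown for adjacent genes on each chromosome: Krt13 and Krt36, which both rose, and Krt78 and Krt8, of which the first rose and the second did not pass the test. Each run is RefSeq sequence of GRCm38.p6 from 250 bases before to 50 bases after an annotated gene start, read 5′ to 3′ on the strand of the gene. Capitals mark AGAACA or its reverse complement, a single arm of the palindrome bound by androgen and glucocorticoid receptors. They also mark TATAAA or its reverse complement, the letters searched here for a TATA box. Other forms of the TATA box were not searched, so a promoter without these capitals may still hold one.
Krt13, chr11:100121517-100121816, minus strand: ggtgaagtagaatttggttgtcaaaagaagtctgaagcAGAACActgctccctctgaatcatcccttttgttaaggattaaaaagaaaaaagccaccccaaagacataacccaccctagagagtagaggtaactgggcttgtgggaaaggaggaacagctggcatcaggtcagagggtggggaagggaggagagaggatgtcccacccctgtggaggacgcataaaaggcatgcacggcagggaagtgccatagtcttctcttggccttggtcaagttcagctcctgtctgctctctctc
Krt36, chr11:100105577-100105876, minus strand: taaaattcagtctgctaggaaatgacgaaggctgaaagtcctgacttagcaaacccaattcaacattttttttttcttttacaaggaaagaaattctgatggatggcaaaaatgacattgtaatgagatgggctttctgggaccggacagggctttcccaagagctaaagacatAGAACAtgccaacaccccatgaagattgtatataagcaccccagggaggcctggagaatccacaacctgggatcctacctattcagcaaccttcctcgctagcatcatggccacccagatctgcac
Krt78, chr15:101954238-101954537, minus strand: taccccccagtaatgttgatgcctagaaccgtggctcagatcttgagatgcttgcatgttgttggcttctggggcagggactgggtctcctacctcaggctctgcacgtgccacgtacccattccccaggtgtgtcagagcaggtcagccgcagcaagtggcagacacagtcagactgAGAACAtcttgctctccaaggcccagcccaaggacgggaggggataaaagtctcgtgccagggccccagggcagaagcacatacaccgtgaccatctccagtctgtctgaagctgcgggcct
Krt8, chr15:102004293-102004592, minus strand: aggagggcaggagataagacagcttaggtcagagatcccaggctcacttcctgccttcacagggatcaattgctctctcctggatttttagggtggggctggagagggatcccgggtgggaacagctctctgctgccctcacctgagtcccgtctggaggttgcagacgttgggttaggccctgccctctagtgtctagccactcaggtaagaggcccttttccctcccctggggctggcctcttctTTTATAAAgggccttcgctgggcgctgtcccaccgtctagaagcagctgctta
In Krt13 the AGAACA match begins at position -212 from the start, in Krt36 at -76 and in Krt78 at -72. In Krt8 the TATAAA match spans the annotated start itself. AGAACA occurred on either strand in 19% of 32851 promoters of this length. Of the 48 keratins 35 were in the promoter table, and 8 of these held it. They included 5 of the 8 higher keratins found in the table (Krt10, Krt13, Krt36, Krt42 and Krt78). The higher keratins Krt14, Krt31 and Krt32 lacked AGAACA, and the remaining keratins that held it were not called. The promoters shown are therefore not typical of the family, and a link between AGAACA and the changes was not tested. The other 4 higher keratins, Krt15, Krt19, Krt4 and Krt86, are not among these counts. TATAAA occurred on either strand in 13.6% of all promoters and in 19 of the 35 keratin genes, among them 4 of those 8. The pattern TGANTCA, with any base in the middle, occurred in 7.81% of all promoters and in 1 keratin, Krt13. It is looser than the AP-1 site, which has C or G in the middle. In Krt13 it read TGAATCA, which is not that site. The full palindrome of both arms with a gap of any 3 bases occurred in 3 promoters, none of them of a keratin. All motifs were searched on both strands, and the palindrome contains the single arm. These are matches of letters and not measured binding.

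Genes whose products bind keratin filaments or build the same structures were read out in 6 lists. Of their 79 genes, 3 were higher and 2 were lower, against 4.19% and 7.51% of all genes; the unadjusted counts below stand against 11.2% and 14.9%. None of 16 genes of desmosomes, the junctions that anchor keratin filaments, passed the test in limma (median 0.05; at an unadjusted p under 0.05, 1 was higher and 1 was lower). The same held for 13 plakins and other keratin-binding proteins (median 0.11; 2 higher and 1 lower unadjusted) and for 8 hemidesmosome genes (median 0.05; 1 higher and 0 lower unadjusted). Dsp, which encodes desmoplakin, had means of 4.47 in degarelix samples and 4.37 in untreated samples, both below background.

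Of 15 other intermediate filament genes 1 rose and 2 fell (median 0.06). Synm, which encodes synemin, a large filament protein that assembles with vimentin or desmin, had 7.43, 7.55 and 7.61 in degarelix samples, against 9.36, 9.25 and 9.23 in untreated samples. The groups lay far apart and the change was -1.75 (SE 0.08, limma adjusted p = 2.64e-05). Vim, which encodes vimentin of mesenchymal cells, had 10.12, 10.12 and 10.17 in degarelix samples, against 9.62, 9.43 and 9.90 in untreated samples, a rise of 0.49 (SE 0.11, limma adjusted p = 0.0258). The call of Vim was lost with array medians centred (adjusted p = 0.075), without any of the degarelix samples (0.0634 to 0.0863) and without untreated replicate 2 (0.0687). The mean level of 7 fibroblast markers was 8.18 to 8.94 in degarelix samples and 7.81 to 8.25 in untreated samples, and 2 of them, Dcn and Fbln1, rose (1.46 and 1.07). The collagen genes Col1a1, Col1a2 and Col3a1 of that list changed by 0.15, 0.27 and 0.30, Lum by 1.19 and Postn by -0.68, and none of these passed (limma adjusted p = 0.567, 0.242, 0.231, 0.105 and 0.0517). The part of these markers in the change of Vim was not tested. Lmnb1, which encodes a nuclear lamin, changed by -0.35 (SE 0.09, limma adjusted p = 0.0435) and kept its call on leaving out untreated replicate 1 alone, among the 6 samples (adjusted p = 0.0637 to 0.142 for the others).

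Of 17 cornified envelope genes 1 rose and 0 fell in limma (median 0.18; 5 higher and 0 lower unadjusted). Sbsn, which encodes suprabasin of stratified epithelium, had 7.98, 7.96 and 8.09 in degarelix samples, against 7.14, 7.39 and 7.19 in untreated samples, a rise of 0.77 (SE 0.09, limma adjusted p = 9.73e-04). Ivl and Lor, which encode the envelope proteins involucrin and loricrin, lay below background in both groups. Of 12 keratin-associated hair shaft protein genes 1 rose and 0 fell (median 0.10; 4 higher and 0 lower unadjusted), Krtap17-1 by 0.56 (SE 0.11, limma adjusted p = 0.0161). It no longer passed on leaving out degarelix replicate 1 (adjusted p = 0.0678), degarelix replicate 2 (0.0623), untreated replicate 2 (0.0527) or untreated replicate 3 (0.0542).

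**Figure D4:**
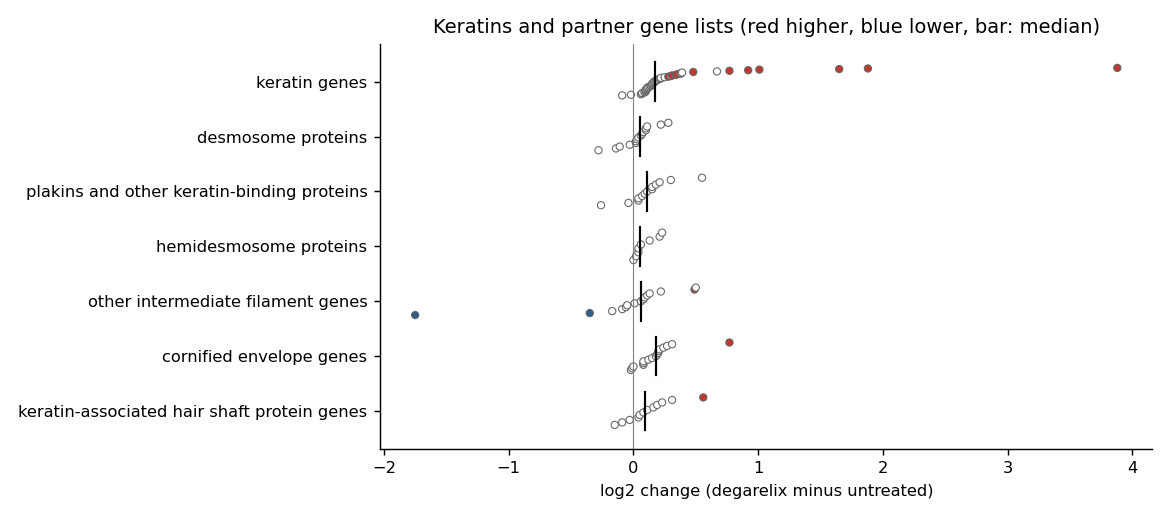
Log2 change, degarelix minus untreated (horizontal axis), of each gene of the keratin family and of 6 lists of partner genes (rows); each point is a gene, red if higher and blue if lower at a limma adjusted p under 0.05, with the median of the list as a bar. The keratins extend to 3.88, and Synm at -1.75 is the lowest point.

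Markers of cell types were set beside these values. Of 10 basal prostate markers other than keratins 0 changed in limma (0 higher and 0 lower unadjusted), with mean levels of 6.48 to 6.56 in degarelix samples and 6.46 to 6.55 in untreated samples. Trp63, the transcription factor gene of basal cells, was at 4.94 ± 0.05 in degarelix samples and 5.01 ± 0.05 in untreated samples (SD, n = 3 each), below background. Of 12 epidermal keratinocyte markers other than keratins Sbsn alone changed, with mean levels of 4.90 to 5.04 in degarelix samples and 4.82 to 4.86 in untreated samples. Of 10 luminal markers 1, the tight junction gene Cldn3, was lower (10.31 ± 0.04 in degarelix samples and 10.62 ± 0.12 in untreated samples). The epithelial adhesion genes Epcam and Cdh1 were below background in both groups, at 3.90 and 4.98 in degarelix samples and at 3.85 and 4.85 in untreated samples. Whether the clusters of Epcam, Cdh1 and Dsp respond to their transcripts on this array was not tested. Of 6 luminal progenitor markers Ly6d alone passed the test, with a rise of 1.05 (SE 0.15, limma adjusted p = 0.00283). All 6 had changes above 0, with a median of 0.34, and 4 were higher and 0 lower at an unadjusted p under 0.05; their mean level was 7.85 to 7.94 in degarelix samples and 7.28 to 7.57 in untreated samples. Psca changed by 0.63 (limma adjusted p = 0.092) and Ppp1r1b by 0.26 (0.0607). Leukocyte markers numbered 13, of which 0 changed in limma (0 higher and 2 lower unadjusted). Of 7 endothelial markers Vwf alone passed, with a change of -0.71 (limma adjusted p = 0.0075; 0 higher and 4 lower unadjusted), and the mean level was 6.04 to 6.07 in degarelix samples and 6.14 to 6.47 in untreated samples. Of 8 muscle and pericyte markers Acta1 rose by 0.33 and Rgs5 changed by -0.73 (limma adjusted p = 0.0316 and 0.0072), with mean levels of 7.13 to 7.30 in degarelix samples and 7.18 to 7.28 in untreated samples. The part of these cell types in the keratin changes was not tested.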

How the data were processed

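RNA of sorted tumor cells was measured on 6 Affymetrix MTA 1.0 arrays, 3 of degarelix and 3 of untreated tumors, grouped by the labels' source names. The values the authors deposited are on a log2 scale and come from Affymetrix Expression Console and RMA, per the submitters' processing notes; their versions were not given in the sources used here. Background correction and quantile normalization, which RMA includes, can shrink the changes of dim genes. The log2 scale was read from the values (1.96 to 13.69 over transcript clusters, array medians 4.70 to 4.84). Of 72688 rows, 6732 control rows were left out. Of 65956 clusters 30604 had 1 symbol in the platform annotation, 2146 several and 33206 none. A RefSeq table gave 827 of the clusters with 1 symbol a newer symbol by Entrez identifier. No keratin member changed its symbol, but the newer symbols included Krt90, a keratin outside the membership rule. The brightest cluster of each of 30142 genes was tested, with no filter on dim genes.

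The fit was limma 3.58.1 (lmFit and eBayes, R 4.3.3), two-sided, and p-values were adjusted by Benjamini-Hochberg over the 30142 genes; it was first checked on data with known changes. Python 3.11.15 with pandas 2.3.3 prepared the tables, and matplotlib 3.10.9 drew the plots. The members and gene lists were chosen with earlier results of these data known, so their counts are descriptions. Named were keratins past the test, keratins above background, Krt5, Krt8, Krt14 and Krt18, and up to 4 changed genes per partner list; the other genes named (Krt1, Krt17, neighbours on the chromosome and markers) were chosen after their values were seen. Alternatives left out each sample in turn, blocked on the replicate number, averaged the clusters per gene, dropped dim genes, or changed the scaling, the variance model or the array weights. Listed genes without a row of their own were not analysed here.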

Additional observations from a re-analysis of the deposited data

Results flagged for a closer look

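A cluster annotated with both Krt6a and Krt6b, which encode near-identical type II keratins of injured epithelium, was outside the membership rule but well above background. Its values were 10.57, 10.43 and 10.21 in degarelix samples (mean 10.40), against 9.02, 10.43 and 10.28 in untreated samples (mean 9.91). The difference of 0.50 was not tested, the groups overlapped, and untreated replicate 1 was lowest, as it was for Krt16. The signal cannot be assigned to either gene.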

How the results depend on the processing

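No keratin was called lower under any of the 14 alternatives. The count of 12 higher keratins became 24 with gene-by-gene array weights and 4 with dim genes left out, where fewer genes were tested, and was 7 to 17 on leaving out single samples. The cause of the first was not tested. Those weights were 3.419 for degarelix replicate 2 and 0.387 for degarelix replicate 3. Counts over the partner lists moved from 3 higher and 2 lower to 7 higher under cyclic loess, 6 higher with quantile normalization, and 16 higher and 5 lower with array weights. They were 1 to 6 higher and 1 to 4 lower without single samples. Over all genes 1262 were higher and 2264 lower; these became 691 higher with array medians centred and 5052 and 4860 with array weights. The lowest counts over all genes, 624 and 966, came without degarelix replicate 1. The median change over all genes was 0.04, -0.01 with array medians centred and -0.08 with dim genes left out. The change of Krt7, which was not called, turned above 0 under cyclic loess (0.10), with quantile normalization (0.05), without degarelix replicate 2 (0.02) and without untreated replicate 2 (0.06), and that of Krt80 under cyclic loess (0.02) and without untreated replicate 2 (0.04). Over single samples left out, Krt7 ranged from -0.07 to 0.06 and Krt80 from -0.27 to 0.04. With the replicate number as a block 14 keratins were higher and 0 lower. Same-numbered samples correlated by 0.16, 0.04 and 0.20 in their deviations from the group means, so the numbers were not taken as pairs, although each of the 6 samples correlated best with its own number. Taking members by updated symbol added Krt90, which did not pass (change 0.12, limma adjusted p = 0.311).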
